A study of Homo sapiens with 12 samples.

Results

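RNA from cells of the hepatocellular carcinoma line HLE was compared between 2 siRNA depletions directly, siRNA against YAP and TAZ (siY/T) set against siRNA against ATF4 (siATF4), in 2 drug arms. The comparison uses 8 of the 12 libraries of the series, namely 2 each of siY/T with the vehicle DMSO, siATF4 with DMSO, siY/T with Sorafenib (Srf) and siATF4 with Sorafenib, chosen by their labels alone. The remaining 4 libraries, from cells with a control siRNA (siCtr) in the same arms, entered no test and are given beside the results for position only. All groups were the same line under the same culture conditions, each carried a transfected siRNA, and the labels give Sorafenib as 5 µM with no time of exposure, whereas the study's text gives another dose, and a time, for RNA sequencing of HLE cells. A depletion by siRNA is partial, HLE is a single established line, and the labels do not say whether the 2 libraries of a group came from separate cultures, so the P values measure the spread between these libraries.

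YAP (gene *YAP1*) and TAZ (gene *WWTR1*) are co-activators that the kinases of the Hippo pathway keep out of the nucleus and that act there through TEAD factors on genes of growth, matrix and cell shape. ATF4 is a bZIP factor whose translation rises when eIF2alpha is phosphorylated under amino acid shortage, endoplasmic reticulum stress or other stress, and it drives genes of amino acid supply, redox balance and stress feedback. Sorafenib inhibits RAF and several receptor tyrosine kinases and can cause ferroptosis, a death by lipid peroxidation. The study asked how YAP/TAZ and ATF4 act together under this drug, and the direct comparison asks where losing one differs from losing the other.

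Expression is in CPM, the share of a library's gene reads that fell on a gene scaled to 1000000, and differences are on the log2(CPM + 0.5) scale as siY/T minus siATF4, so that a positive value is higher in siY/T and a negative value higher in siATF4 cells. Values after ± are standard errors of the limma fit, in which the difference of an arm sets 2 libraries against 2. The variance behind them was estimated for each gene over all groups of the fit together. A gene therefore has the same standard error in DMSO and in Srf, which does not show the spread of that arm's own libraries. A gene was called at a Benjamini-Hochberg adjusted P under 0.05 and an absolute difference of at least 0.58, and a difference between the arms was called on the interaction at an adjusted P under 0.05.

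Reads on genes numbered 41408348 to 52739295 per library over the 8, so that 1 read was worth 0.019 to 0.0241 CPM. The first principal component, with 84.5% of the variance, separated the depletions, and the second, with 9.1%, the arms. Replicates differed from each other with an SD of 0.179 on the log2 scale in siY/T DMSO and of 0.0824 to 0.108 in the other 3 groups. Of 18 hepatocyte markers only 4 reached 1 CPM in at least 2 libraries, with *APOA2* and *APOB* at 0 and *ALB* and *HNF4A* under 1 CPM in all 12 libraries, while *KRT8*, *KRT18* and *VIM* were abundant. The summed hepatocyte markers, mostly the fibrinogen chain *FGB*, lay at 247 to 294 CPM in siY/T, at 69.9 to 77.3 in siATF4 and at 190.1 to 449 in siCtr cells. No endothelial marker reached 1 CPM in 2 libraries, and of 7 immune markers only *CD68* did, with *CD3E* at 0.

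The targeted genes followed the labels in every library. *YAP1* (GRCh37 chr11:101981178-102104155, plus strand) was at 46.6 and 57.7 CPM in siY/T DMSO, 236 and 242 in siATF4 DMSO, 48.7 and 47 in siY/T Srf and 278 and 258 in siATF4 Srf cells, and *WWTR1* (chr3:149235022-149454501, minus strand) was at 53.3 and 68.6 CPM in siY/T DMSO, 107 and 104 in siATF4 DMSO, 49.3 and 54.5 in siY/T Srf and 145 and 136 in siATF4 Srf cells. Both were lower in both siY/T libraries than in both siATF4 libraries of either arm, by -2.19 ± 0.08 in DMSO and -2.47 ± 0.08 in Srf for *YAP1* and -0.80 ± 0.10 in DMSO and -1.43 ± 0.10 in Srf for *WWTR1*. *ATF4* (chr22:39915700-39918688, plus strand) was at 207 and 197 CPM in siY/T DMSO, 96.2 and 101 in siATF4 DMSO, 317 and 314 in siY/T Srf and 84.5 and 90.6 in siATF4 Srf cells. Its difference was 1.03 ± 0.05 in DMSO and 1.84 ± 0.05 in Srf, with adjusted P of 2.9e-08 and 7.2e-10, and it was wider in Srf by 0.81 ± 0.07 (adjusted P = 5.3e-05). The siCtr means of *ATF4* were 248 CPM in DMSO and 488 in Srf, so that the siY/T means lay under the control in both arms too. For *WWTR1* they were 171 CPM in DMSO and 149.5 in Srf, above both depletions in each arm.

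The promoters of 3 genes on which both pathways are usually read are shown because *CCN2* and *ANKRD1* separated the depletions in both arms and *CHAC1* in Srf. Each run is the 250 bases before the start site in RefSeq (GRCh38.p14), 5′ to 3′ on the strand of the gene. Capitals mark the TEAD motif GGAATG in *CCN2* (chr6:131951373-131951622, minus strand) and *ANKRD1* (chr10:90921088-90921337, minus strand), and in *CHAC1* (chr15:40953221-40953470, plus strand) a C/EBP-ATF response element, TGATGNAA, read on the opposite strand.
CCN2: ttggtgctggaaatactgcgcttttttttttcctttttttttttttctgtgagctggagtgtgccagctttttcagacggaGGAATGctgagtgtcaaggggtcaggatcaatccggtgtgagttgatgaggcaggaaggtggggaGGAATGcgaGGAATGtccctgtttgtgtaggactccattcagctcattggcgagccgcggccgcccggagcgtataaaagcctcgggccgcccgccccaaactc
ANKRD1: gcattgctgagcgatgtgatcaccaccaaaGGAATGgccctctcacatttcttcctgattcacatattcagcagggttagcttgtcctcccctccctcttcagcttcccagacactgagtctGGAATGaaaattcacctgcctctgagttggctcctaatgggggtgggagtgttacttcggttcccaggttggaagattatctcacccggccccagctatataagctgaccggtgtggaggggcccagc
CHAC1: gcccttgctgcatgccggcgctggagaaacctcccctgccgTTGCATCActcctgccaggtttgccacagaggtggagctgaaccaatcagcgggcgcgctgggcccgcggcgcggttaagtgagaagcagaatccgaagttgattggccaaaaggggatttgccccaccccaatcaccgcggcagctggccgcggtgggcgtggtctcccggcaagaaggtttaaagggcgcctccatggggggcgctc
*CCN2*, which codes for a secreted matricellular factor, held 3 such TEAD motifs and *ANKRD1*, which codes for a nuclear ankyrin repeat protein, held 2. Searched on both strands from 250 bases before to 50 after the start, GGAATG was found in 15% of the 10711 tested genes with a RefSeq promoter, in 16.7% of those higher in siY/T in both arms, in 16.8% of those higher in siATF4 in both arms in 8 of 15 YAP/TAZ target genes and in 4 of 15 integrated stress response factors. TGATGNAA was found in 2.74% of all, in 3.01% and 4.36% of the same groups, in 0 of 15 YAP/TAZ target genes, in 4 of 15 integrated stress response factors and in 5 of 13 amino acid transporters. The genes that separated the depletions thus held the TEAD motif about as often whichever side they were on, and these matches are letters in a window and not measured sites.

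Of 13515 genes tested, 4828 (35.7%) separated the depletions in DMSO, 3074 (22.7%) higher in siY/T and 1754 (13%) higher in siATF4. In Srf 5210 (38.5%) did, 3205 (23.7%) higher in siY/T and 2005 (14.8%) higher in siATF4. The side of the calls depended on the scaling, since 63.7% and 61.5% of the calls were higher in siY/T on the deposited CPM but 48.5% and 48.4% after quantile normalization, which moved the median of all genes from 0.06 to -0.07 in both arms. The 2 arms have no library in common, and 3763 genes (27.8%) were called in the same direction in both, which were 77.9% of the DMSO calls and 72.2% of the Srf calls. Of these, 2518 (18.6%) were higher in siY/T and 1245 (9.21%) higher in siATF4. Another 553 genes separated in DMSO only and 830 in Srf only, with the difference between arms called as well, and 6 (0.0444%) were called with opposite signs. Here only means not called in the other arm, where a gene can still differ without passing the rule, as *CEBPB* below did in Srf. Across all genes tested, Pearson's r between the arms' differences was 0.903, a description over genes that are not independent.

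**Figure D1:**
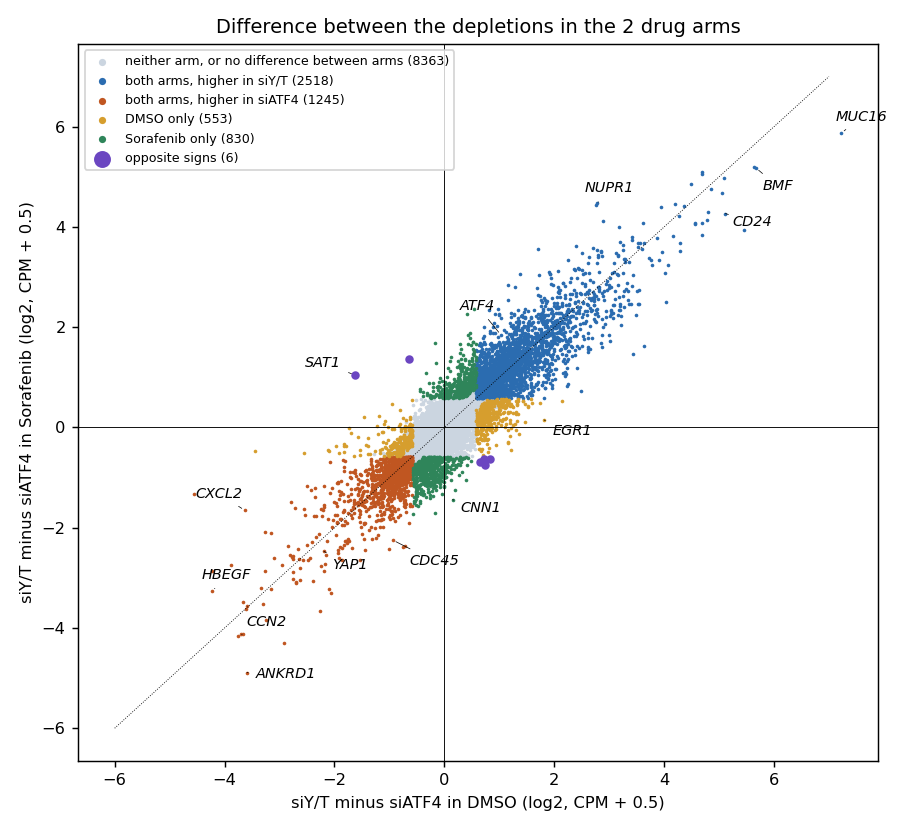
Log2 difference (siY/T minus siATF4, CPM + 0.5) of each of the 13515 genes tested in DMSO (x) and in Srf (y), coloured by class, with equality as a dotted line. The 3763 genes called the same way in both arms run along the diagonal, the 553 and 830 genes of 1 arm were not called in the other, and *SAT1* is among the 6 with opposite signs.

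The siCtr mean of the same arm lay between the 2 depletions for 88.5% of the DMSO calls higher in siY/T and 81.8% of those higher in siATF4, and for 84.5% and 84.3% in Srf. Among these genes the siATF4 mean was the one further from siCtr more often, in 1602 of 2720 and 936 of 1434 genes in DMSO and in 2077 of 2707 and 1369 of 1691 in Srf. For most calls the depletions lay on opposite sides of the control mean. A call on a wide difference between the depletions itself favours this position, and the share over all genes tested was not counted. These shares therefore do not show that the depletions act in opposite directions. Whether each differed from siCtr was not tested here.

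Among the genes with the widest separation toward siY/T in both arms, *MUC16* (GRCh37 chr19:8959520-9121066, minus strand), a membrane mucin known as the antigen CA-125, was at 179 and 291 CPM in siY/T DMSO, 1.16 and 0.911 in siATF4 DMSO, 383 and 348 in siY/T Srf and 6.98 and 4.71 in siATF4 Srf cells. The difference was 7.23 ± 0.21 in DMSO and 5.87 ± 0.21 in Srf (adjusted P 6.5e-10 and 2.5e-09), and siCtr lay between at 23.3 CPM in DMSO and 122 in Srf. *CD24*, a small glycosylated surface protein, was at 1504 and 1564 CPM in siY/T DMSO, 45.4 and 42.1 in siATF4 DMSO, 2112 and 2152 in siY/T Srf and 121 and 100.4 in siATF4 Srf cells, a difference of 5.12 ± 0.08 in DMSO and 4.27 ± 0.08 in Srf. *GGT1*, which cleaves extracellular glutathione and has close copies that may take reads from it, was at 59.1 and 57.5 CPM in siY/T DMSO, 1.5 and 1.07 in siATF4 DMSO, 68.6 and 74.8 in siY/T Srf and 2.35 and 2.27 in siATF4 Srf cells. In each of these 3 genes the lowest siY/T library was above the highest siATF4 library of the same arm by a wide margin, and siCtr lay between.

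*BMF*, a BH3-only protein that binds BCL2 family survival factors, was at 115 and 109.5 CPM in siY/T DMSO, 2.12 and 1.37 in siATF4 DMSO, 113 and 110.5 in siY/T Srf and 2.98 and 2.27 in siATF4 Srf cells, a difference of 5.67 ± 0.15 in DMSO and 5.18 ± 0.15 in Srf. *PIK3IP1*, a membrane inhibitor of PI3K, was at 39.2 and 37.1 CPM in siY/T DMSO, 1.52 and 1.23 in siATF4 DMSO, 51.9 and 55.5 in siY/T Srf and 1.93 and 2.14 in siATF4 Srf cells. *MAP2*, a microtubule-associated protein best known from neurons, was at 17.9 and 28 CPM in siY/T DMSO, 0.407 and 0.238 in siATF4 DMSO, 41.8 and 42.2 in siY/T Srf and 1.78 and 1.52 in siATF4 Srf cells. *FXYD2*, the gamma subunit of the sodium pump, was at 18.6 and 17.7 CPM in siY/T DMSO, 0.193 and 0.257 in siATF4 DMSO, 34.2 and 38.8 in siY/T Srf and 0.739 and 0.492 in siATF4 Srf cells. The readthrough gene *FXYD6-FXYD2* overlaps it and had nearly the same values (4.69 ± 0.13 in DMSO and 5.1 ± 0.13 in Srf), so they cannot be told apart. *AKR1C3*, an aldo-keto reductase with near-identical family members that may take its reads, was at 16.1 and 14.3 CPM in siY/T DMSO, 0.214 and 0.178 in siATF4 DMSO, 23.8 and 28.1 in siY/T Srf and 0.493 and 0.342 in siATF4 Srf cells.

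The siATF4 levels of *MAP2*, *FXYD2* and *AKR1C3* in DMSO, and of *AKR1C3* in Srf, were under 0.5 CPM, the pseudocount. The size of these differences rests on it in part. For 3 other genes of this group the siATF4 level in DMSO was a handful of reads, and the size of the difference there rests on the pseudocount. The potassium channel gene *KCNJ16* had 1340 and 1233 reads in siY/T DMSO and 4 and 3 in siATF4 DMSO libraries, and 2078 and 2115 and 53 and 29 in Srf. The thiol methyltransferase gene *TMT1A* had 964 and 739 against 4 and 1 reads in DMSO and 1518 and 1360 against 27 and 26 in Srf. For *GAL3ST1*, which sulfates galactolipids, the reads were 722 and 698 against 2 and 3 in DMSO and 896 and 945 against 25 and 6 in Srf. All 3 were called in both arms.

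Genes higher in siATF4 in both arms were led by *CCN2*, at 7.47 and 7.85 CPM in siY/T DMSO, 101 and 117 in siATF4 DMSO, 3.68 and 3.88 in siY/T Srf and 71.2 and 81.8 in siATF4 Srf cells. Its difference was -3.75 ± 0.09 in DMSO and -4.17 ± 0.09 in Srf, and the siCtr means of 33.1 CPM in DMSO and 11.7 in Srf lay between the depletions. *ANKRD1* had 2 and 4 reads in siY/T DMSO and 283 and 334 in siATF4 DMSO, and 9 and 1 and 906 and 820 in Srf, so that its siY/T level is also a handful of reads. Both promoters are those printed above with TEAD motifs.

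*MMP1*, the interstitial collagenase, was at 548 and 413 CPM in siY/T DMSO, 6173 and 5446 in siATF4 DMSO, 133 and 106 in siY/T Srf and 1449 and 1473 in siATF4 Srf cells, a difference of -3.61 ± 0.13 in DMSO and -3.61 ± 0.13 in Srf. It was the most abundant of the leading genes and its siY/T means were also under siCtr, which was at 774 CPM in DMSO and 185 in Srf. *HBEGF*, an EGF receptor ligand, was at 3.04 and 2.0 CPM in siY/T DMSO, 55.6 and 54.7 in siATF4 DMSO, 1.78 and 2.52 in siY/T Srf and 24.2 and 25.6 in siATF4 Srf cells, and its difference was smaller in Srf by 0.95 ± 0.23 (adjusted P = 0.012). *FGF1*, a fibroblast growth factor, was at 5.11 and 4.06 CPM in siY/T DMSO, 36.6 and 38.7 in siATF4 DMSO, 1.9 and 1.05 in siY/T Srf and 37 and 38.4 in siATF4 Srf cells, with a difference that moved by -1.39 ± 0.24 in Srf (adjusted P = 0.0022). The call of *HBEGF* between the arms was lost with no filter and without siATF4 Srf library 1 or siY/T Srf library 2.

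*GADD45A*, a stress gene of growth arrest, was at 9.27 and 7.87 CPM in siY/T DMSO, 84.9 and 92.1 in siATF4 DMSO, 8.86 and 8.74 in siY/T Srf and 104 and 108 in siATF4 Srf cells, a difference of -3.3 ± 0.08 in DMSO and -3.52 ± 0.08 in Srf. The siCtr means were 14.2 CPM in DMSO and 19.2 in Srf, nearer to siY/T. *MARCHF4*, a membrane ubiquitin ligase, was at 15.7 and 14.5 CPM in siY/T DMSO, 196 and 201 in siATF4 DMSO, 10.3 and 8.37 in siY/T Srf and 168 and 173 in siATF4 Srf cells. *SH2D5*, an SH2 domain protein, was at 9.54 and 10.4 CPM in siY/T DMSO, 129 and 141 in siATF4 DMSO, 8.88 and 8.18 in siY/T Srf and 151 and 164 in siATF4 Srf cells. *MAFF*, a small MAF bZIP factor, was at 4.04 and 3.69 CPM in siY/T DMSO, 40.5 and 41.4 in siATF4 DMSO, 1.39 and 0.982 in siY/T Srf and 22.6 and 24.2 in siATF4 Srf cells. *NRIP3*, *TMEM40* and *NAV3* completed the 12, with differences in DMSO and Srf of -3.67 and -3.48, -3.33 and -3.21 and -3.16 and -3.22. The genes named here had to show no overlap between the depletions in either arm, as 86.6% of all genes tested did in DMSO and 89.2% in Srf.

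**Figure D2:**
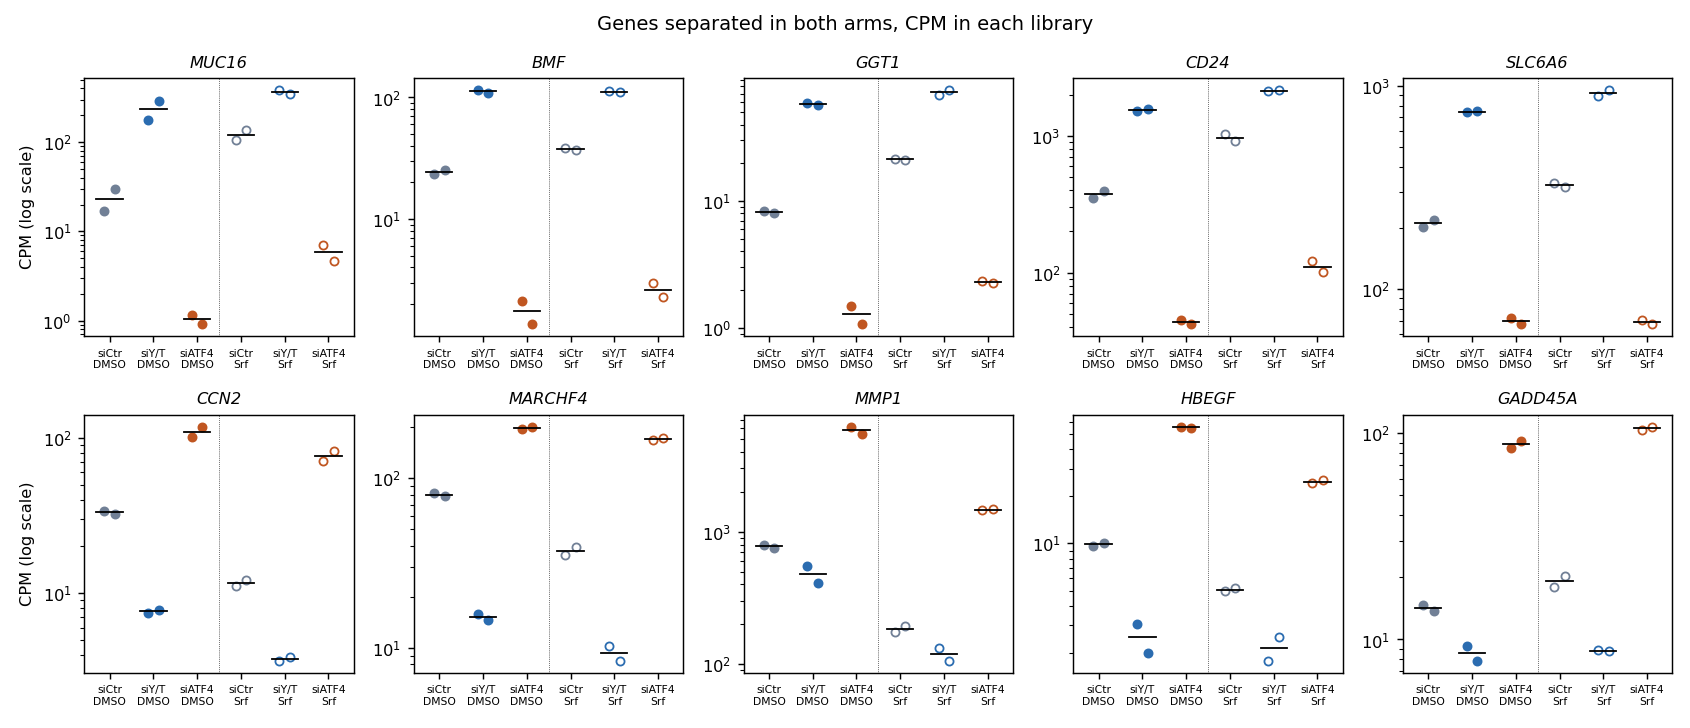
CPM on a log scale in each library (points, filled in DMSO and open in Srf; bars are means of 2) for 5 genes higher in siY/T (top) and 5 higher in siATF4 (bottom) in both arms. The depletions stay apart in both arms, as for *MUC16* with 7.23 and 5.87 and *CCN2* with -3.75 and -4.17 on the log2 scale, and siCtr lies between them in every panel.

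Gene lists were read against all genes tested, of which 22.7% were higher in siY/T and 13% higher in siATF4 in DMSO, and 23.7% and 14.8% in Srf, with a median difference of 0.06 in both arms. Where limma called 0 members on a side, an unadjusted P under 0.05, edgeR and DESeq2 called 0 as well, except that edgeR and DESeq2 each called 1 interferon-stimulated gene in Srf and 1 actin cytoskeleton gene in DMSO higher in siATF4, and edgeR 1 gene of the metallothionein and zinc export list higher in siY/T in DMSO. Leaving out 1 library raised a count of 0 to 1 in these 3 lists and in the cytosolic tRNA synthetase, mitochondrial ribosomal and mitosis lists. Of 21 YAP/TAZ target genes, 12 were called higher in siATF4 in DMSO and the same number in Srf, and all of those were shared by the arms, while 2 and 1 were higher in siY/T. The median was -1.0 in DMSO and -1.01 in Srf. *CCN1*, a matricellular partner of CCN2, was at 77.5 and 74 CPM in siY/T DMSO, 460.1 and 538 in siATF4 DMSO, 53.2 and 55.5 in siY/T Srf and 459.9 and 481 in siATF4 Srf cells.

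Among 20 Hippo pathway and TEAD genes, 3 members were called higher in siY/T and 6 in siATF4 cells in DMSO, and 3 and 9 in Srf. *AMOT*, a junctional scaffold that binds YAP, was higher in siY/T at 24 and 24.5 CPM in siY/T DMSO, 3.28 and 3.56 in siATF4 DMSO, 22.1 and 22.2 in siY/T Srf and 3.85 and 3.85 in siATF4 Srf cells. Its relative *AMOTL2* and the kinase gene *LATS2* went the other way, with differences of -1.52 and -0.94 and -1.13 and -1.04, as did the scaffold *WWC1* with -1.4 and -1.28. The pathway's inhibitors were therefore on both sides, and 7 of the 20 were called in neither arm.

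AP-1 and immediate early factors, which answer growth factor and stress signals within minutes to hours, included more calls toward siATF4 than toward siY/T. Of 16 tested, 2 members were called higher in siY/T and 8 in siATF4 cells in DMSO, and 1 and 10 in Srf, with medians of -0.63 in DMSO and -0.73 in Srf. *FOSL1*, a FOS partner of JUN, was at 141 and 114 CPM in siY/T DMSO, 547 and 539 in siATF4 DMSO, 43.1 and 30.4 in siY/T Srf and 337 and 348 in siATF4 Srf cells, a difference of -2.09 ± 0.14 in DMSO and -3.22 ± 0.14 in Srf. *JUN* was at 152 and 141 CPM in siY/T DMSO, 369 and 390.2 in siATF4 DMSO, 79 and 73.8 in siY/T Srf and 309 and 327 in siATF4 Srf cells, and its difference was wider in Srf by -0.68 ± 0.08 (adjusted P = 2.6e-04). *KLF2*, a zinc finger factor, differed by -2.24 and -1.62. *EGR1* was higher in siY/T in DMSO only and is described with the genes of 1 arm.

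Among 16 ERK feedback genes, 3 members were called higher in siY/T and 8 in siATF4 cells in DMSO, and 4 and 6 in Srf, the Srf count higher in siY/T being 2 with a filter at 5 CPM. The phosphatase gene *DUSP5*, which acts on nuclear ERK, was at 31.1 and 26.9 CPM in siY/T DMSO, 196 and 202 in siATF4 DMSO, 16.6 and 14.7 in siY/T Srf and 117 and 121 in siATF4 Srf cells. The Sprouty genes split, with *SPRY4* at -0.99 and -1.59 and *SPRY1* at 2.25 and 2.11 for DMSO and Srf. *EPHA4*, an ephrin receptor counted in this list though not a feedback inhibitor, was at 123 and 138 CPM in siY/T DMSO, 10.7 and 10.5 in siATF4 DMSO, 152 and 163 in siY/T Srf and 11.9 and 11.7 in siATF4 Srf cells.

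The EGF family list was led by *HBEGF*. *EREG* and *AREG*, further ligands of the family, were low throughout, with *EREG* at 1.21 and 0.942 CPM in siY/T DMSO, 4.03 and 3.74 in siATF4 DMSO, 0.321 and 0.304 in siY/T Srf and 1.27 and 1.2 in siATF4 Srf cells. *AREG* was at 0.449 and 0.483 CPM in siY/T DMSO, 1.41 and 1.43 in siATF4 DMSO, 0.342 and 0.117 in siY/T Srf and 1.18 and 1.48 in siATF4 Srf cells. Both were called higher in siATF4 in both arms. *TGFA* was called higher in siY/T, by 0.62 and 0.87, but its DMSO call was lost under TMM scaling, quantile normalization, a pseudocount of 1 and without siATF4 DMSO library 2 or siY/T DMSO library 1, and its Srf call under quantile normalization. Of 8 members tested, 2 members were called higher in siY/T and 4 in siATF4 cells in DMSO, and 1 and 4 in Srf. The DMSO count higher in siY/T was 0 with a pseudocount of 1, under TMM scaling and under quantile normalization, and 1 without any single DMSO library. With a filter at 5 CPM the counts higher in siATF4 were 2 in each arm.

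Chemokines and inflammatory cytokines had medians of -1.83 in DMSO and -1.2 in Srf, the lowest of the 36 lists described. In Srf that median was -0.82 with a pseudocount of 1 and -1.02 without siATF4 Srf library 2, both above that of the YAP/TAZ targets, and -2.03 under edgeR. Of 11 tested, 8 were called higher in siATF4 in each arm, all 8 in both, and 0 higher in siY/T. *CXCL5*, which draws neutrophils, was at 1.68 and 1.79 CPM in siY/T DMSO, 22.1 and 19.8 in siATF4 DMSO, 1.41 and 1.22 in siY/T Srf and 6.88 and 7.58 in siATF4 Srf cells. *CXCL2* was at 0.449 and 0.386 CPM in siY/T DMSO, 10.6 and 11.1 in siATF4 DMSO, 0.3 and 0.304 in siY/T Srf and 1.74 and 2.33 in siATF4 Srf cells, and the gap was smaller in Srf by 1.98 ± 0.18 (adjusted P = 6.2e-05). *CXCL3* differed by -2.35 and -1.2 at under 5 CPM, and *IL11*, a cytokine of the interleukin-6 family, was at 6.69 and 4.4 CPM in siY/T DMSO, 24.6 and 22.6 in siATF4 DMSO, 1.28 and 1.47 in siY/T Srf and 5.75 and 6.74 in siATF4 Srf cells. The difference between the arms was called for 7 of the 11, each time toward a smaller gap in Srf, and for 4 under edgeR and DESeq2 and without siATF4 DMSO library 2. Of all genes tested, 28.3% had a difference between the arms called, 12.7% toward siY/T in Srf and 15.6% toward siATF4. With a filter at 5 CPM, 5 members of the list were called in each arm.

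In the list of metalloproteinases and plasminogen genes, *MMP1* was joined by *PLAUR*, the urokinase receptor, at 13.7 and 10.8 CPM in siY/T DMSO, 88 and 84.2 in siATF4 DMSO, 8.0 and 7.01 in siY/T Srf and 44.4 and 50.6 in siATF4 Srf cells. *SERPINE2*, a secreted inhibitor of serine proteases, differed by 2.69 and 1.79. Of 11 tested, 5 members were called higher in siY/T and 3 in siATF4 cells in DMSO, and 4 and 3 in Srf.

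Genes of the ATF4 side were not all lower in siATF4 than in siY/T cells. Of 16 integrated stress response factors, 4 members were called higher in siY/T and 6 in siATF4 cells in DMSO, and 6 and 5 in Srf, with medians of -0.02 in DMSO and 0.27 in Srf. The Srf median was 0.001 under quantile normalization, and the DMSO median was above 0 with a filter at 5 CPM and without siATF4 DMSO library 2. *NUPR1*, a stress-induced chromatin protein, was at 2.95 and 3.38 CPM in siY/T DMSO, 0.0857 and 0 in siATF4 DMSO, 14.8 and 15 in siY/T Srf and 0.228 and 0.193 in siATF4 Srf cells. It had 4 and 0 reads in siATF4 DMSO, so the size of its difference rests on the pseudocount. The difference was 2.76 and 4.44 in DMSO and Srf, with an interaction called by limma but of -0.047 by edgeR. *DDIT4*, an mTORC1 inhibitor, was at 34.8 and 30.3 CPM in siY/T DMSO, 8.68 and 7.53 in siATF4 DMSO, 53.1 and 53.8 in siY/T Srf and 6.56 and 6.14 in siATF4 Srf cells. *VLDLR*, a lipoprotein receptor, was at 28.5 and 30.6 CPM in siY/T DMSO, 7.76 and 7.68 in siATF4 DMSO, 41.4 and 45.9 in siY/T Srf and 10.6 and 8.56 in siATF4 Srf cells. Against these, *PPP1R15A*, the phosphatase subunit that reverses eIF2alpha phosphorylation, was at 39.1 and 38.2 CPM in siY/T DMSO, 239.9 and 255 in siATF4 DMSO, 38.1 and 36.9 in siY/T Srf and 193 and 217 in siATF4 Srf cells, a difference of -2.66 ± 0.06 in DMSO and -2.43 ± 0.06 in Srf. The siCtr means of *PPP1R15A*, 48.2 CPM in DMSO and 55 in Srf, were nearer to siY/T than to siATF4. The difference between the arms was called for 10 of the 16, with 9 toward siY/T in Srf, beside 28.3% and 12.7% of all genes tested.

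*CHAC1*, the glutathione-degrading enzyme whose promoter is shown above, was at 3.14 and 2.29 CPM in siY/T DMSO, 1.74 and 1.7 in siATF4 DMSO, 9.22 and 7.01 in siY/T Srf and 2.43 and 2.38 in siATF4 Srf cells. In DMSO its difference of 0.52 ± 0.15 was not called, and in Srf it was 1.56 ± 0.15 (adjusted P = 3.5e-06). The widening of 1.04 ± 0.21 was called at an adjusted P of 0.0054, not with no filter, and both depletions lay under the siCtr mean of 19.1 CPM in Srf. *SLC7A11* (GRCh37 chr4:139085251-139163503, minus strand), the cystine antiporter subunit, was at 7.67 and 8.16 CPM in siY/T DMSO, 11.7 and 11.4 in siATF4 DMSO, 25.3 and 16.2 in siY/T Srf and 14.2 and 13.1 in siATF4 Srf cells. Neither arm's difference passed, at -0.52 ± 0.16 in DMSO (95% interval -0.87 to -0.17) and 0.56 ± 0.16 in Srf (0.21 to 0.91), which does not show that the depletions act alike. The 2 differences did differ, by 1.08 ± 0.22 (adjusted P = 0.0057), a call lost with no filter. The 2 siY/T Srf libraries were far apart, and siCtr, at 23.2 CPM in DMSO and 65.8 in Srf, was above both depletions.

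Of 17 enzymes of amino acid synthesis and one-carbon metabolism, 3 members were called higher in siY/T and 3 in siATF4 cells in DMSO, and 4 and 1 in Srf. The Srf count higher in siATF4 was 2 without siATF4 Srf library 1 and under TMM scaling, edgeR and DESeq2, and 0 under quantile normalization. *PHGDH*, the first enzyme of serine synthesis, was at 188 and 170.4 CPM in siY/T DMSO, 61.4 and 65.5 in siATF4 DMSO, 254 and 237 in siY/T Srf and 84.8 and 86.3 in siATF4 Srf cells. *GLUL*, glutamine synthetase, was at 334 and 305 CPM in siY/T DMSO, 100.0 and 95.7 in siATF4 DMSO, 383 and 376 in siY/T Srf and 134 and 130.1 in siATF4 Srf cells. *CBS*, of the transsulfuration route, was higher in siY/T by 0.83 and 1.89, wider in Srf by 1.06 ± 0.16. *MTHFD2*, the mitochondrial one-carbon enzyme, was higher in siATF4 in DMSO only, at 60.2 and 52.7 CPM in siY/T DMSO, 113 and 112 in siATF4 DMSO, 84.7 and 68.5 in siY/T Srf and 100.4 and 96.6 in siATF4 Srf cells. *ASNS*, asparagine synthetase, named after its values were seen, was at 36.4 and 28.7 CPM in siY/T DMSO, 34.2 and 35.8 in siATF4 DMSO, 58.1 and 44 in siY/T Srf and 32.8 and 31.3 in siATF4 Srf cells, so that the depletions were close in DMSO and siY/T was higher in Srf (0.65 ± 0.13), a call lost without siY/T Srf library 1.

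Among 15 plasma membrane amino acid transporters, 5 members were called higher in siY/T and 3 in siATF4 cells in DMSO, and 4 and 3 in Srf, with medians of -0.24 in DMSO and 0.12 in Srf, the latter turning to -0.01 under quantile normalization. The difference between the arms was called for 10 of the 15, with 8 toward siY/T in Srf, beside 28.3% and 12.7% of all genes tested. It was called for 4 with no filter. The count higher in siATF4 was 1 in Srf without siY/T Srf library 2, and in DMSO 5 under TMM scaling and 6 under quantile normalization, edgeR and DESeq2. *SLC6A6*, the taurine transporter, was at 743 and 752 CPM in siY/T DMSO, 72.3 and 67.2 in siATF4 DMSO, 895 and 954 in siY/T Srf and 70.4 and 67.5 in siATF4 Srf cells, a difference of 3.41 ± 0.05 in DMSO and 3.73 ± 0.05 in Srf. The glycine transporter *SLC6A9* and the branched-chain transporter *SLC43A2* were also higher in siY/T, by 1.34 and 2.04 and 1.12 and 1.71. *SLC7A1*, the carrier of cationic amino acids, was higher in siATF4, at 124 and 117 CPM in siY/T DMSO, 232 and 246 in siATF4 DMSO, 114 and 92.3 in siY/T Srf and 207 and 214 in siATF4 Srf cells. *SLC3A2*, the partner chain of SLC7A11, was called in neither arm, at 183 and 166 CPM in siY/T DMSO, 213 and 220.1 in siATF4 DMSO, 221 and 217 in siY/T Srf and 222 and 239 in siATF4 Srf cells.

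No cytosolic aminoacyl-tRNA synthetase was called higher in siY/T in DMSO, although ATF4 is known to drive several of them. The difference between the arms was called for 12 of the 20, with 10 toward siY/T in Srf, beside 28.3% and 12.7% of all genes tested. It was called for 6 with no filter. Of 20 tested, 0 members were called higher in siY/T and 9 in siATF4 cells in DMSO, and 1 and 5 in Srf, with medians of -0.51 in DMSO and -0.25 in Srf, and the Srf count higher in siATF4 was 3 without siY/T Srf library 2. *NARS1*, for asparagine, was at 164 and 164 CPM in siY/T DMSO, 297 and 303 in siATF4 DMSO, 189 and 174 in siY/T Srf and 286 and 286 in siATF4 Srf cells. *VARS1*, for valine, was at 239 and 216 CPM in siY/T DMSO, 351 and 362 in siATF4 DMSO, 187 and 174 in siY/T Srf and 332 and 363 in siATF4 Srf cells, its DMSO call being lost without siY/T DMSO library 2. *LARS1* and *FARSB*, for leucine and phenylalanine, differed by -0.85 and -0.58 and -0.53 and -0.88, and *LARS1* lost its Srf call under quantile normalization and without siATF4 Srf library 1 or siY/T Srf library 2.

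Among 10 genes that restrain mTORC1, 4 members were called higher in siY/T and 1 in siATF4 cells in DMSO, and 3 and 0 in Srf. The DMSO count higher in siY/T was 2, a share near that of all genes, under TMM scaling, quantile normalization, edgeR and DESeq2 and without siY/T DMSO library 1 or siATF4 DMSO library 2. Beside *DDIT4*, *CASTOR1*, an arginine sensor, was higher in siY/T by 0.97 and 1.65. *SESN2*, a leucine sensor, was at 28.6 and 27.6 CPM in siY/T DMSO, 23.6 and 23.3 in siATF4 DMSO, 35.9 and 38.9 in siY/T Srf and 13.7 and 15.7 in siATF4 Srf cells, and so separated in Srf only, with siY/T higher. *TRIB3*, a pseudokinase that ATF4 induces, was at 33.5 and 30.1 CPM in siY/T DMSO, 70.5 and 78 in siATF4 DMSO, 59.9 and 51.2 in siY/T Srf and 57.8 and 62.9 in siATF4 Srf cells, and so separated in DMSO only, with siATF4 higher. Its siCtr means were 41.3 CPM in DMSO and 116 in Srf, under siATF4 in DMSO and above both depletions in Srf.

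The antioxidant lists were split. Of 19 NRF2 target genes, 6 members were called higher in siY/T and 6 in siATF4 cells in DMSO, and 5 and 6 in Srf, and the DMSO median of 0.06 turned negative with a filter at 5 CPM and under TMM scaling, quantile normalization, edgeR and DESeq2. *HMOX1*, which degrades heme, was at 65.7 and 53 CPM in siY/T DMSO, 440.3 and 387 in siATF4 DMSO, 55 and 49.2 in siY/T Srf and 138 and 154 in siATF4 Srf cells, and its gap was smaller in Srf by 1.32 ± 0.15 (adjusted P = 1.5e-04). *NQO1*, a quinone reductase, was at 248 and 207 CPM in siY/T DMSO, 97 and 84.3 in siATF4 DMSO, 190.2 and 191 in siY/T Srf and 77 and 74.5 in siATF4 Srf cells. *SRXN1*, sulfiredoxin, was at 155 and 137 CPM in siY/T DMSO, 319 and 318 in siATF4 DMSO, 96.4 and 95.5 in siY/T Srf and 267 and 275 in siATF4 Srf cells. Well known members of this response thus lay on opposite sides in both arms. Of 15 genes of glutathione metabolism, 3 members were called higher in siY/T and 2 in siATF4 cells in DMSO, and 3 and 3 in Srf, with *GCLM*, the modifier subunit of the first synthesis step, at 29.7 and 29 CPM in siY/T DMSO, 72.1 and 69.4 in siATF4 DMSO, 23 and 21.5 in siY/T Srf and 55.6 and 54.4 in siATF4 Srf cells. *MGST2*, a microsomal transferase, was higher in siY/T by 1.77 and 1.75 and *CHAC2* higher in siATF4 by -0.81 and -1.29.

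Of 22 genes of lipid peroxidation and iron, 4 members were called higher in siY/T and 6 in siATF4 cells in DMSO, and 6 and 6 in Srf. The DMSO count higher in siY/T was 2 without siATF4 DMSO library 2. *TFRC*, the transferrin receptor that imports iron, was at 152 and 159.7 CPM in siY/T DMSO, 265 and 269 in siATF4 DMSO, 95.9 and 78.4 in siY/T Srf and 229 and 216 in siATF4 Srf cells. *SLC40A1*, the only known iron exporter, was at 2.07 and 2.41 CPM in siY/T DMSO, 0.921 and 0.733 in siATF4 DMSO, 3.83 and 4.09 in siY/T Srf and 0.891 and 1.28 in siATF4 Srf cells. *IREB2*, an iron-responsive RNA-binding protein, was higher in siY/T by 0.70 and 1.09, the DMSO call being lost without siY/T DMSO library 2. The 2 genes most tied to ferroptosis itself were called in neither arm. *GPX4*, which reduces lipid hydroperoxides, was at 203 and 185 CPM in siY/T DMSO, 225 and 221 in siATF4 DMSO, 186 and 188 in siY/T Srf and 213 and 227 in siATF4 Srf cells, with 95% intervals of -0.33 to -0.08 and -0.36 to -0.11, and *ACSL4*, which loads phospholipids with oxidisable fatty acids, at 122 and 161 CPM in siY/T DMSO, 121 and 119.7 in siATF4 DMSO, 158 and 142 in siY/T Srf and 153 and 141 in siATF4 Srf cells, with intervals of -0.02 to 0.46 and -0.20 to 0.27.

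Most interferon-stimulated genes tested were called higher in siY/T in both arms. Of 22 tested, 17 members were called higher in siY/T and 1 in siATF4 cells in DMSO, and 17 and 0 in Srf, 16 of them higher in siY/T in both, with medians of 1.25 in DMSO and 1.18 in Srf. *IFIT1*, which binds foreign RNA ends, was at 8.89 and 9.59 CPM in siY/T DMSO, 0.214 and 0.218 in siATF4 DMSO, 15.3 and 16.7 in siY/T Srf and 1.18 and 1.09 in siATF4 Srf cells. *IRF9*, the DNA-binding part of the interferon-activated complex, was at 58.6 and 56.1 CPM in siY/T DMSO, 16.4 and 14.5 in siATF4 DMSO, 53.1 and 56.7 in siY/T Srf and 15 and 15.2 in siATF4 Srf cells, a difference of 1.86 ± 0.07 in DMSO and 1.83 ± 0.07 in Srf. *OAS2* and *IFI44* differed by 2.77 and 2.11 and 1.75 and 1.97. The siCtr mean of *IRF9* was 26.4 CPM in DMSO and 38.4 in Srf, between the depletions.

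Antigen presentation by MHC class I went the same way, with 9 of 14 genes called higher in siY/T in DMSO, 10 in Srf and 0 higher in siATF4 in either arm. *HLA-B*, a heavy chain whose reads may be shared with the other HLA genes, was at 57.8 and 51.8 CPM in siY/T DMSO, 12.5 and 11.1 in siATF4 DMSO, 47.3 and 48.1 in siY/T Srf and 10.8 and 12.3 in siATF4 Srf cells. *PSMB9*, a subunit of the immunoproteasome, was at 39.1 and 35.4 CPM in siY/T DMSO, 10.8 and 9.64 in siATF4 DMSO, 33.7 and 36.1 in siY/T Srf and 14.3 and 15.1 in siATF4 Srf cells. *NLRC5*, the activator of class I genes, and the trimming peptidase *ERAP2* differed by 1.49 and 1.19 and 1.11 and 1.3.

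Matrix genes that were called were mostly higher in siY/T as well. Of 26 collagens and collagen processing enzymes, 14 members were called higher in siY/T and 3 in siATF4 cells in DMSO, and 13 and 3 in Srf, with medians of 0.76 in DMSO and 0.53 in Srf. *COL1A1* was at 50.7 and 50.3 CPM in siY/T DMSO, 6.92 and 5.49 in siATF4 DMSO, 52.7 and 51.7 in siY/T Srf and 7.05 and 6.51 in siATF4 Srf cells. *COL3A1* was at 36.5 and 40.8 CPM in siY/T DMSO, 3.09 and 3.53 in siATF4 DMSO, 39.9 and 44 in siY/T Srf and 3.91 and 3.72 in siATF4 Srf cells. The cross-linking enzymes split, *LOXL1* being at 24.8 and 24.1 CPM in siY/T DMSO, 2.68 and 2.61 in siATF4 DMSO, 45.1 and 51.6 in siY/T Srf and 6.64 and 6.59 in siATF4 Srf cells. *LOX* was at 2.73 and 2.9 CPM in siY/T DMSO, 19 and 17 in siATF4 DMSO, 2.76 and 2.34 in siY/T Srf and 18.1 and 19.2 in siATF4 Srf cells. Of 21 integrins and laminins, 13 members were called higher in siY/T and 1 in siATF4 cells in DMSO, and 11 and 4 in Srf. *ITGB8*, which activates latent TGF-beta, was at 8.89 and 13.5 CPM in siY/T DMSO, 0.171 and 0.198 in siATF4 DMSO, 13.4 and 9.4 in siY/T Srf and 0.834 and 0.664 in siATF4 Srf cells. *ITGB4*, the hemidesmosome chain, was at 17 and 18.6 CPM in siY/T DMSO, 4.2 and 3.96 in siATF4 DMSO, 41.2 and 47.2 in siY/T Srf and 10.9 and 9.87 in siATF4 Srf cells. *ITGB6* and *LAMA4* were low, under 5 CPM, and differed by 2.93 and 2.07 and 1.15 and 2.54.

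Of 16 TGF-beta ligands, receptors and feedback genes, 10 members were called higher in siY/T and 2 in siATF4 cells in DMSO, and 6 and 2 in Srf, with 1 higher in siATF4 in Srf without siY/T Srf library 2. *TGFBR3*, the betaglycan co-receptor, was at 15.5 and 15.5 CPM in siY/T DMSO, 2.91 and 3.07 in siATF4 DMSO, 15.1 and 14.2 in siY/T Srf and 4.0 and 3.94 in siATF4 Srf cells. *SKIL*, a SMAD co-repressor, was at 74.1 and 98.2 CPM in siY/T DMSO, 23.8 and 21.6 in siATF4 DMSO, 69.4 and 57.2 in siY/T Srf and 18.7 and 16.3 in siATF4 Srf cells. *SMAD6*, an inhibitory SMAD, differed by 2.21 and 1.45 and *LTBP2*, a latent TGF-beta binding protein, by -1.15 and -1.4. Of 9 IGF genes, 6 members were called higher in siY/T and 1 in siATF4 cells in DMSO, and 5 and 1 in Srf, and the binding proteins were on both sides. *IGF2* had 2 and 2 reads in siATF4 DMSO, so its difference rests on the pseudocount. *IGFBP3* was at 44.3 and 42 CPM in siY/T DMSO, 209 and 249 in siATF4 DMSO, 25.8 and 23.3 in siY/T Srf and 204 and 217 in siATF4 Srf cells, while *IGFBP7* was at 271 and 263 CPM in siY/T DMSO, 61.3 and 66.3 in siATF4 DMSO, 350.0 and 399.6 in siY/T Srf and 111 and 112 in siATF4 Srf cells. *IGFBP4* differed by 1.54 and 1.41 and *IGF2*, low in all groups, by 2.17 and 2.89.

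Axon guidance cues had the highest DMSO median of the 36 lists described, 1.38 in DMSO and 1.19 in Srf, but for a filter at 5 CPM and without siY/T DMSO library 2, where interferon-stimulated genes did. Of 15 tested, 10 members were called higher in siY/T and 2 in siATF4 cells in DMSO, and 10 and 2 in Srf. *SEMA3F*, a secreted semaphorin, was at 67.9 and 62.1 CPM in siY/T DMSO, 6.88 and 5.84 in siATF4 DMSO, 163 and 166 in siY/T Srf and 14.1 and 13.2 in siATF4 Srf cells, a difference of 3.26 ± 0.08 in DMSO and 3.55 ± 0.08 in Srf. *SLIT2*, a secreted ligand, was at 10.2 and 9.59 CPM in siY/T DMSO, 1.14 and 1.05 in siATF4 DMSO, 20.2 and 22.7 in siY/T Srf and 1.18 and 1.52 in siATF4 Srf cells, its relative *SLIT3* differed by 2.32 and 1.42, and the receptor *ROBO2* was at 37.7 and 45.5 CPM in siY/T DMSO, 8.27 and 7.23 in siATF4 DMSO, 68.9 and 71.4 in siY/T Srf and 13.5 and 13.7 in siATF4 Srf cells. Ligands and receptor of the same pair were thus higher in siY/T together.

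**Figure D3:**
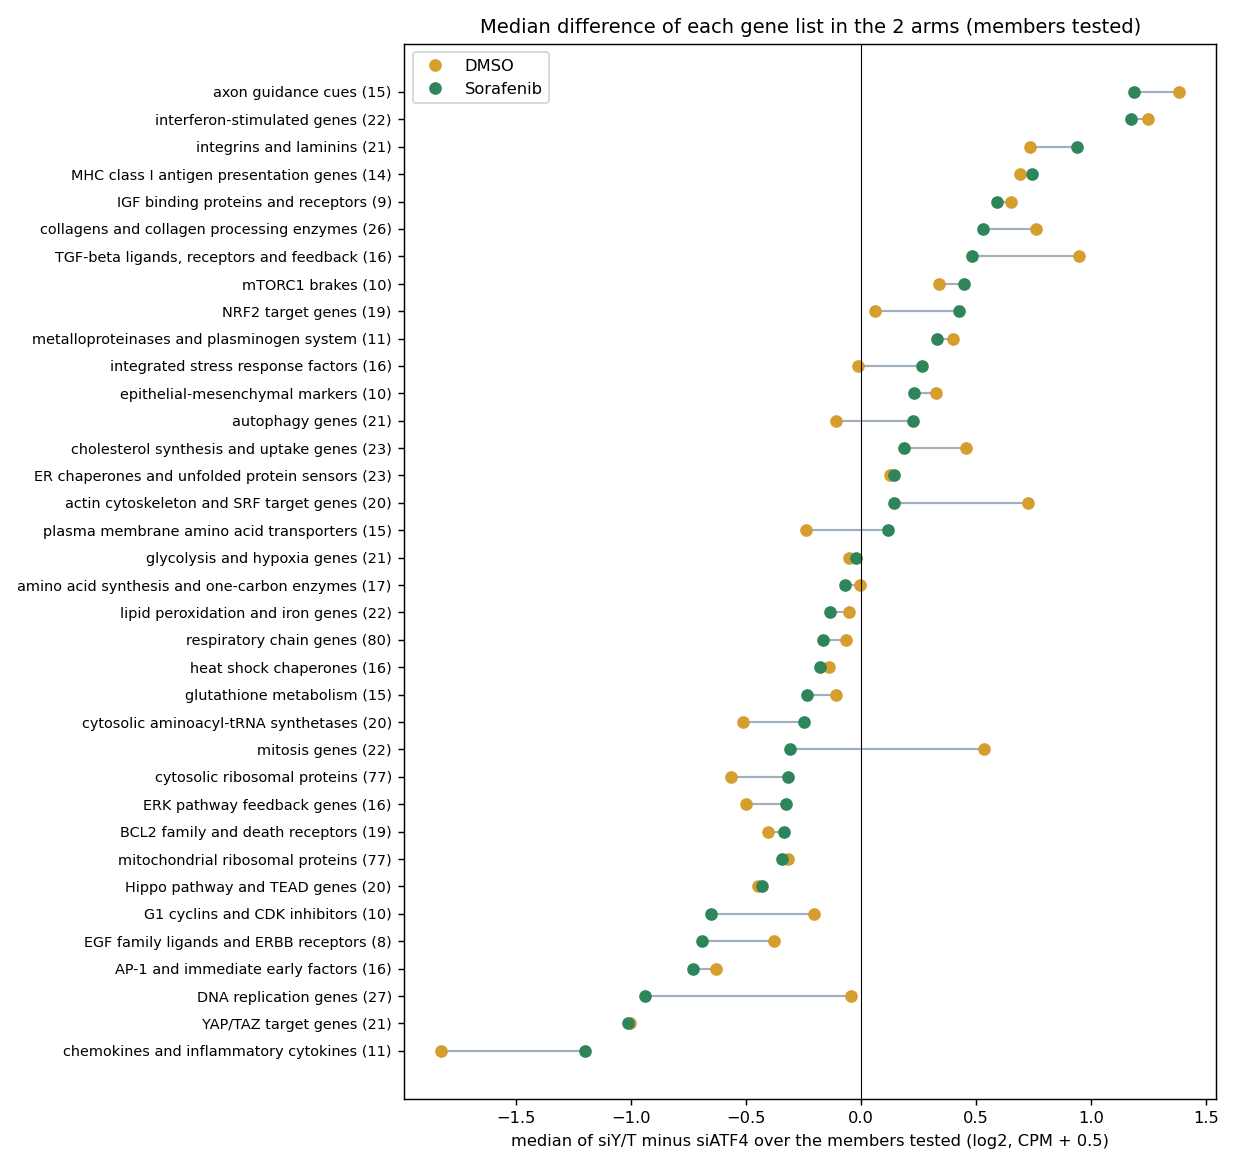
Median log2 difference (siY/T minus siATF4) over the tested members of each of the 36 gene lists in DMSO and in Srf, with the number of members in brackets. Chemokines and YAP/TAZ targets lie furthest to the siATF4 side in DMSO, axon guidance cues and interferon-stimulated genes to the siY/T side in both arms, and DNA replication and mitosis genes shift toward siATF4 in Srf.

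DNA replication genes separated the depletions in Srf and hardly in DMSO. Of 27 tested, 1 was called in DMSO and 22 in Srf, all higher in siATF4, with medians of -0.04 in DMSO and -0.94 in Srf. The difference between the arms was called for 27 of 27, every one toward siATF4 in Srf, beside 28.3% of all genes in either direction, 15.6% in this one and 12.7% in the other. *MCM4*, of the replicative helicase, was at 409.7 and 387 CPM in siY/T DMSO, 329 and 332 in siATF4 DMSO, 217 and 200.0 in siY/T Srf and 407 and 397 in siATF4 Srf cells, and in siCtr at 450.0 CPM in DMSO and 238 in Srf. *CDC45*, which activates that helicase, was at 30.5 and 27.2 CPM in siY/T DMSO, 56.5 and 55.1 in siATF4 DMSO, 12.4 and 10.3 in siY/T Srf and 55.3 and 55.5 in siATF4 Srf cells, with siCtr at 38.9 CPM in DMSO and 17.1 in Srf. For both genes the siY/T and siCtr libraries were lower in Srf than in DMSO, whereas the siATF4 means were 330.4 and 402 CPM for *MCM4* and 55.8 and 55.4 for *CDC45*. The fitted differences between arms were -1.22 ± 0.07 and -1.31 ± 0.12 (adjusted P 2.2e-05 and 6.5e-05). In RNA from whole cultures, fewer cycling cells and less of these RNAs per cell cannot be told apart.

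*TYMS*, thymidylate synthase, was at 324 and 312 CPM in siY/T DMSO, 405 and 419 in siATF4 DMSO, 150.3 and 155 in siY/T Srf and 389.8 and 381 in siATF4 Srf cells. *MCM10*, a replication initiation factor, and *GINS4*, a helicase subunit, differed by -0.48 and -1.57 and -0.51 and -1.26. *PCNA*, the sliding clamp, was at 412 and 397 CPM in siY/T DMSO, 340.2 and 343 in siATF4 DMSO, 222 and 222 in siY/T Srf and 282 and 291 in siATF4 Srf cells, and although called in neither arm its difference moved by -0.61 ± 0.06 (adjusted P = 9.9e-05). The count of 22 Srf calls was 22 or 23 under each change of scaling, tool or library, and 11 with a difference of at least 1 asked for.

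Mitosis genes moved in the same direction from a different start. Of 22 tested, 9 were called higher in siY/T in DMSO and 0 in Srf, where 3 were called higher in siATF4, and the medians were 0.54 in DMSO and -0.31 in Srf. The DMSO count was 5 under TMM scaling, edgeR, DESeq2 and without siY/T DMSO library 2. The Srf count higher in siATF4 was 6 under TMM scaling, edgeR and DESeq2 and 5 without siATF4 Srf library 2. The difference between the arms was called for 22 of 22, but for 16 with no filter and for fewer without some libraries. *KIF20A*, a kinesin of the spindle midzone, was at 547 and 562 CPM in siY/T DMSO, 252 and 254 in siATF4 DMSO, 328 and 347 in siY/T Srf and 298 and 293 in siATF4 Srf cells. *ASPM*, of the spindle poles, and *NUSAP1*, a microtubule bundler, differed by 0.78 and -0.03 and 0.71 and 0.02, and *ASPM* lost its DMSO call without siY/T DMSO library 2. *ANLN*, a cytokinesis scaffold, went from -0.42, not called, to -1.24.

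**Figure D4:**
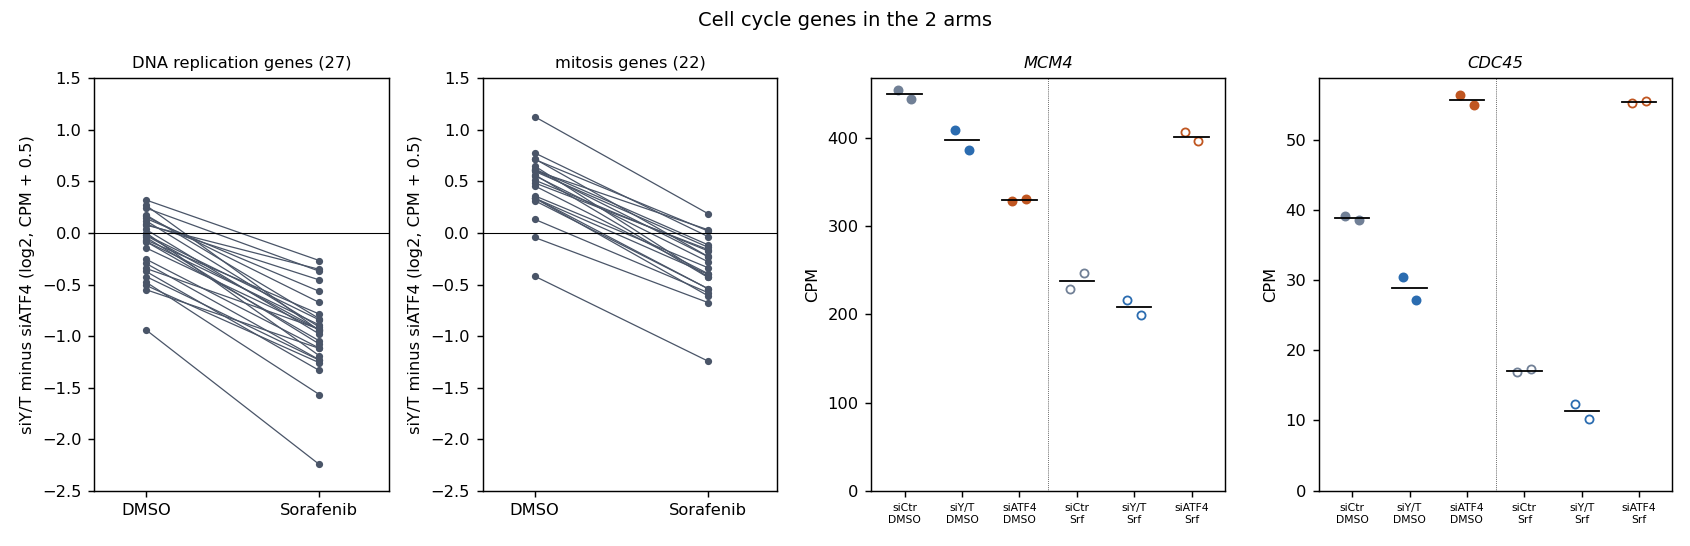
Left, log2 difference (siY/T minus siATF4) of each DNA replication gene (27) and mitosis gene (22) in DMSO and Srf, lines joining a gene; right, CPM of *MCM4* and *CDC45* in each library (points, bars are means of 2). Every line falls from DMSO to Srf, and the siATF4 Srf libraries of *MCM4*, at 407 and 397 CPM, stand above the siY/T Srf and siCtr Srf libraries.

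The regulators of the G1 phase were split between the sides. *CDKN1A*, which codes for the inhibitor p21, was at 18.4 and 14.2 CPM in siY/T DMSO, 107 and 97.6 in siATF4 DMSO, 5.37 and 4.79 in siY/T Srf and 37.2 and 39.6 in siATF4 Srf cells, a difference of -2.62 ± 0.11 in DMSO and -2.8 ± 0.11 in Srf. The inhibitors *CDKN2C* and *CDKN1B* were higher in siY/T, *CDKN2C* at 133 and 122 CPM in siY/T DMSO, 23.4 and 24.1 in siATF4 DMSO, 114 and 117 in siY/T Srf and 31.7 and 32.7 in siATF4 Srf cells and *CDKN1B* by 1.34 and 1.28. *CCND1*, cyclin D1, was at 357 and 311 CPM in siY/T DMSO, 581 and 557 in siATF4 DMSO, 217 and 180.3 in siY/T Srf and 528 and 517 in siATF4 Srf cells. Of 10 tested, 3 members were called higher in siY/T and 3 in siATF4 cells in DMSO, and 2 and 6 in Srf.

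Ribosomal protein genes that were called were higher in siATF4, but for 1 cytosolic gene in Srf. Of all genes tested, 13% were called higher in siATF4 in DMSO and 14.8% in Srf, and the cytosolic share in Srf was under the latter. The difference between the arms was called for 45 of the 77 cytosolic genes, with 44 toward siY/T in Srf. Beside these stand 28.3% and 12.7% of all genes tested. Of 77 cytosolic ones, 36 were called higher in siATF4 in DMSO and 6 in Srf, with medians of -0.56 in DMSO and -0.32 in Srf, and the Srf count was 3 without siY/T Srf library 1 and 2 without siATF4 Srf library 2. *RPS7* was at 204 and 188 CPM in siY/T DMSO, 370.3 and 356 in siATF4 DMSO, 217 and 221 in siY/T Srf and 336 and 356 in siATF4 Srf cells. *RPL5* was at 642 and 608 CPM in siY/T DMSO, 1136 and 1140.1 in siATF4 DMSO, 743 and 788 in siY/T Srf and 1125 and 1149 in siATF4 Srf cells, and *RPL36* differed by -0.86 and -0.62, the Srf call of *RPL36* being lost without siATF4 Srf library 2. These genes have many processed pseudogenes that can take their reads. Of 77 mitochondrial ones, 17 and 14 were called higher in siATF4, the latter 22 to 25 under TMM scaling, quantile normalization, edgeR and DESeq2. *MRPS10* was at 55 and 51.9 CPM in siY/T DMSO, 97.8 and 97.6 in siATF4 DMSO, 44.7 and 39.7 in siY/T Srf and 100.4 and 94.1 in siATF4 Srf cells, and *MRPL4*, *MRPL42* and *MRPL36* differed by -0.86 and -0.90, -0.86 and -0.93 and -0.81 and -0.88. Of 80 respiratory chain genes only 1 and 4 were called, *SDHB* by -0.69 and -1.02 in both arms, and *CYC1*, *UQCRH* and *NDUFS6* in Srf by -0.74, -0.64 and -0.67. These counts were 3 or 4 and 7 or 8 under TMM scaling, quantile normalization, edgeR and DESeq2, and the first was 4 without siY/T DMSO library 1.

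Cholesterol genes separated more in DMSO. Of 23 tested, 8 members were called higher in siY/T and 0 in siATF4 cells in DMSO, and 2 and 1 in Srf, and 11 showed a difference between the arms, each toward siATF4 in Srf and 6 without siATF4 DMSO library 2. The DMSO count was 5 under quantile normalization. The Srf count higher in siY/T was 1 with a filter at 5 CPM, TMM scaling, edgeR and DESeq2, and that higher in siATF4 was 0 without siY/T Srf library 1 or siATF4 Srf library 2. *LSS* and *FDFT1*, of sterol ring and squalene synthesis, differed by 0.92 and 0.48 and 0.88 and 0.62, and the Srf call of *FDFT1* was lost under TMM scaling, edgeR and DESeq2. *TM7SF2*, a sterol reductase, differed by 0.86 and 1.38 at under 3 CPM, its DMSO call being lost under quantile normalization.

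Actin cytoskeleton genes, listed together with targets of serum response factor, followed the same course. Of 20 tested, 12 members were called higher in siY/T and 0 in siATF4 cells in DMSO, and 6 and 2 in Srf, with medians of 0.73 in DMSO and 0.14 in Srf and 12 differences between arms, all 12 toward siATF4 in Srf. *MYL9*, a myosin light chain, was at 1123 and 1068 CPM in siY/T DMSO, 362 and 376 in siATF4 DMSO, 793 and 797 in siY/T Srf and 419 and 446 in siATF4 Srf cells. *TGFB1I1*, a focal adhesion protein, differed by 1.05 and 0.96, and *ACTA2* and the small heat shock chaperone gene *CRYAB*, both under 5 CPM, by 0.95 and 1.18 and 1.65 and 1.41. The DMSO call of *ACTA2* was lost under quantile normalization. *TAGLN* and *CNN1*, calponin family proteins of contractile cells, are among the genes of 1 arm below.

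Of the 334 genes (2.47%) higher in siY/T in DMSO only, the widest change between arms was in *EGR1*, an immediate early zinc finger factor, at 35.8 and 33 CPM in siY/T DMSO, 9.56 and 9.27 in siATF4 DMSO, 0.471 and 0.748 in siY/T Srf and 0.493 and 0.492 in siATF4 Srf cells. In Srf it was under 1 CPM in every depleted library. *TAGLN* was at 20.8 and 18.9 CPM in siY/T DMSO, 7.07 and 9.53 in siATF4 DMSO, 8.39 and 8.95 in siY/T Srf and 10.8 and 13.2 in siATF4 Srf cells, *SRPX2*, a secreted sushi-repeat protein, at 15.5 and 13.4 CPM in siY/T DMSO, 5.44 and 5.17 in siATF4 DMSO, 11.3 and 10.6 in siY/T Srf and 11.5 and 12.4 in siATF4 Srf cells. *TIAM2*, a RAC exchange factor, was at 8.11 and 8.48 CPM in siY/T DMSO, 3.45 and 3.27 in siATF4 DMSO, 7.19 and 8.42 in siY/T Srf and 9.08 and 8.63 in siATF4 Srf cells. The non-coding *LINC01224* and *EEPD1* changed between arms by -1.46 ± 0.13 and -1.44 ± 0.11.

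Of the 219 genes (1.62%) higher in siATF4 in DMSO only, *CEBPB*, a bZIP factor that pairs with ATF4, was at 31.4 and 27.2 CPM in siY/T DMSO, 129.6 and 123 in siATF4 DMSO, 42.9 and 48.2 in siY/T Srf and 64.2 and 62.3 in siATF4 Srf cells, with siCtr at 26.4 CPM in DMSO and 58.6 in Srf. The siATF4 DMSO libraries stood alone at the top and came near the other groups in Srf. *CLDN1*, a tight junction protein, was at 57.5 and 61.6 CPM in siY/T DMSO, 197 and 219 in siATF4 DMSO, 61.4 and 57.3 in siY/T Srf and 81.7 and 72.4 in siATF4 Srf cells. *BMP6*, a BMP ligand, was at 7.84 and 8.72 CPM in siY/T DMSO, 22.6 and 24.9 in siATF4 DMSO, 14.2 and 15.8 in siY/T Srf and 13 and 12.6 in siATF4 Srf cells. *TMEM156*, *TMCC3* and the carboxypeptidase M gene *CPM* changed between arms by 1.67 ± 0.14, 1.46 ± 0.13 and 1.33 ± 0.12.

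Of the 366 genes (2.71%) higher in siY/T in Srf only, *ITGA2*, the collagen-binding integrin chain, was at 13.6 and 19.1 CPM in siY/T DMSO, 13.1 and 10.7 in siATF4 DMSO, 23.3 and 24 in siY/T Srf and 6.71 and 5.71 in siATF4 Srf cells. *WDR45*, an autophagy protein, was at 46.1 and 39.9 CPM in siY/T DMSO, 35.7 and 34.7 in siATF4 DMSO, 45.8 and 47.3 in siY/T Srf and 13.2 and 15.6 in siATF4 Srf cells. *SLC6A15*, a neutral amino acid transporter, was at 20.2 and 23 CPM in siY/T DMSO, 28.2 and 26.5 in siATF4 DMSO, 55.2 and 49.2 in siY/T Srf and 24.6 and 23.9 in siATF4 Srf cells. The histone gene *H2AC6*, at 5.27 and 5.31 CPM in siY/T DMSO, 3.88 and 3.8 in siATF4 DMSO, 13 and 13.1 in siY/T Srf and 2.16 and 2.5 in siATF4 Srf cells, has near-identical copies and an RNA that mostly lacks poly(A). *CCDC142* and *SEC14L2* changed between arms by 1.31 ± 0.10 and 1.29 ± 0.13. For *H2AC6*, *ITGA2*, *WDR45*, *CCDC142* and *SEC14L2* the siATF4 Srf libraries were the lowest of the 8.

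Of the 464 genes (3.43%) higher in siATF4 in Srf only, *CNN1* was at 25.9 and 23.7 CPM in siY/T DMSO, 20.7 and 24 in siATF4 DMSO, 13 and 13 in siY/T Srf and 35.4 and 37 in siATF4 Srf cells, with siCtr at 19.1 CPM in DMSO and 35.5 in Srf. *PRPS1*, which makes phosphoribosyl pyrophosphate for nucleotides, was at 332 and 274 CPM in siY/T DMSO, 265 and 263 in siATF4 DMSO, 190.3 and 173 in siY/T Srf and 424 and 440.1 in siATF4 Srf cells. *PEAR1*, a receptor with EGF repeats, was at 17.4 and 17.8 CPM in siY/T DMSO, 19 and 20.5 in siATF4 DMSO, 11.4 and 10.6 in siY/T Srf and 35.7 and 38.6 in siATF4 Srf cells. *MDGA1*, a GPI-anchored adhesion protein, was at 239.9 and 253 CPM in siY/T DMSO, 179 and 197 in siATF4 DMSO, 204 and 202 in siY/T Srf and 407 and 435 in siATF4 Srf cells. *SPDL1*, a spindle adaptor of dynein, was at 257 and 296 CPM in siY/T DMSO, 221 and 221 in siATF4 DMSO, 136 and 124 in siY/T Srf and 242 and 238 in siATF4 Srf cells. With *MCM4* these were the 6 widest, and siATF4 Srf lay near siCtr Srf in *CNN1* and *PEAR1*.

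The 6 genes with opposite signs were led by *SAT1* (GRCh37 chrX:23801290-23804327, plus strand), the spermidine/spermine acetyltransferase that limits polyamines. It was at 12.9 and 11.9 CPM in siY/T DMSO, 41.6 and 37.1 in siATF4 DMSO, 30.3 and 30.4 in siY/T Srf and 14.2 and 14.6 in siATF4 Srf cells, with differences of -1.63 ± 0.07 (adjusted P = 1.4e-08) and 1.05 ± 0.07 (adjusted P = 3.4e-07). The change of 2.68 ± 0.11 between arms came from a higher siATF4 level in DMSO and a higher siY/T level in Srf, while siCtr was at 7.35 CPM in DMSO and 9.77 in Srf. *SAT1* was the 1 gene still called with opposite signs when a difference of at least 1 was asked for.

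*BHLHE41*, a clock-linked repressor, was at 30.0 and 31.2 CPM in siY/T DMSO, 18 and 18.4 in siATF4 DMSO, 16.5 and 15.1 in siY/T Srf and 26.2 and 27.3 in siATF4 Srf cells. *NEIL3*, a DNA glycosylase active in dividing cells, was at 51.5 and 51.2 CPM in siY/T DMSO, 32.1 and 33.3 in siATF4 DMSO, 28.3 and 25.6 in siY/T Srf and 45.4 and 42 in siATF4 Srf cells. *FBXO43*, a meiotic inhibitor of the anaphase-promoting complex, was at 12.4 and 13.3 CPM in siY/T DMSO, 7.09 and 8.18 in siATF4 DMSO, 8.09 and 8.44 in siY/T Srf and 14.2 and 12.1 in siATF4 Srf cells. All 3 were higher in siY/T in DMSO and higher in siATF4 in Srf, as were mitosis genes by their medians. *NEIL3* lost its DMSO call under TMM scaling and quantile normalization, and *FBXO43* lost it under quantile normalization and its Srf call without siATF4 Srf library 1. *TXNIP* and *RUNX2* lay under 5 CPM on average and are named because only 6 genes were counted, with -0.65 and 1.37 and 0.84 and -0.63. *TXNIP* lost its DMSO call with a pseudocount of 1 and without siATF4 DMSO library 2. *RUNX2* lost its DMSO call under quantile normalization, and its Srf call with a pseudocount of 1 and without siATF4 Srf library 1 or siY/T Srf library 2.

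**Figure D5:**
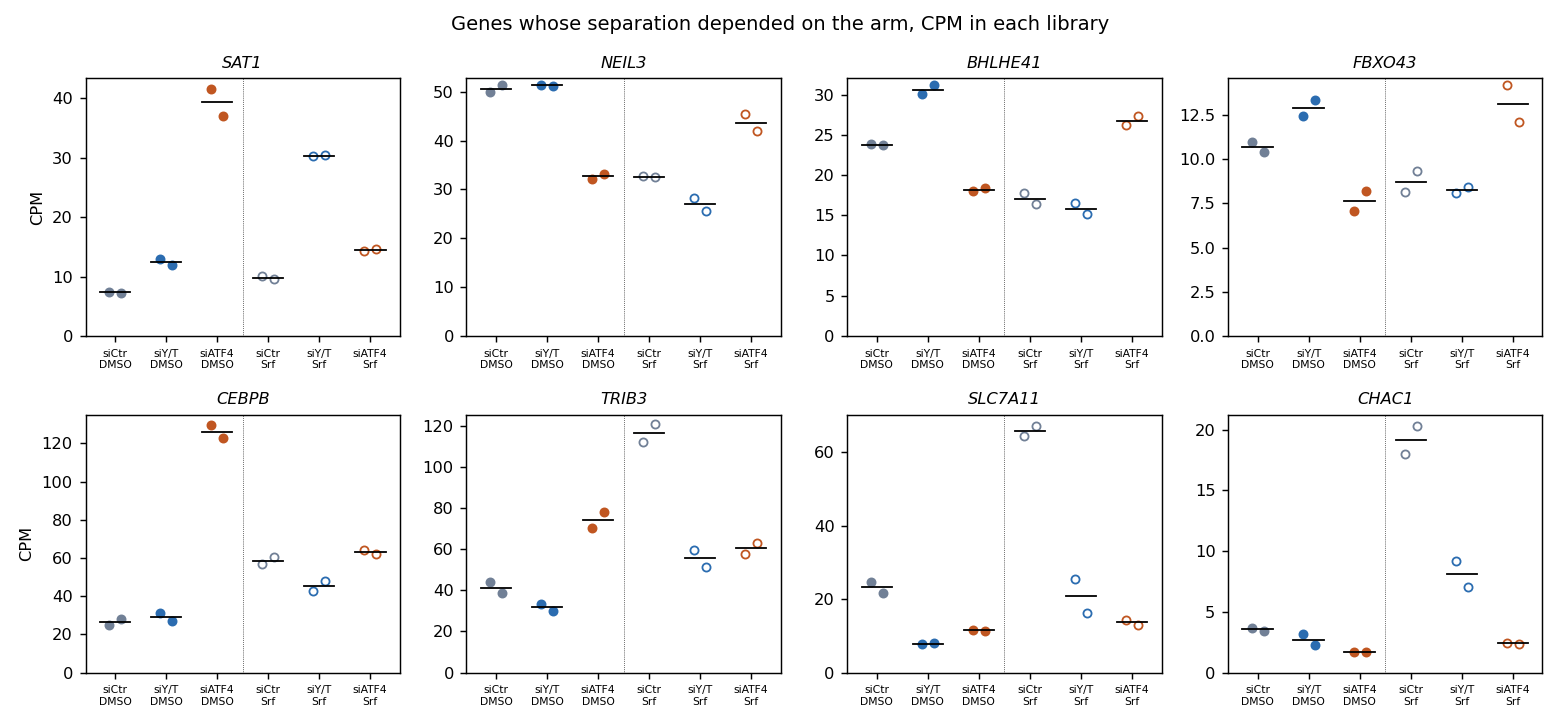
CPM in each library (points, filled in DMSO and open in Srf; bars are means of 2) for the 4 genes of opposite sign that averaged 5 CPM or more and for *CEBPB*, *TRIB3*, *SLC7A11* and *CHAC1*. *SAT1* crosses from -1.63 in DMSO to 1.05 in Srf, and siCtr Srf is the highest group for *TRIB3*, *SLC7A11* and *CHAC1*.

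Genes of the BCL2 family and death receptors were the last list, of which 8 of 19 were called in neither arm. Of the rest, 2 members were called higher in siY/T and 8 in siATF4 cells in DMSO, and 3 and 6 in Srf, and with a filter at 5 CPM the DMSO count higher in siATF4 was 5. The Srf count higher in siY/T was 5 without siATF4 Srf library 1. Beside *BMF*, the BH3-only gene *BCL2L11* was higher in siY/T, at 13.3 and 13.1 CPM in siY/T DMSO, 4.89 and 5.29 in siATF4 DMSO, 19.7 and 20.0 in siY/T Srf and 5.14 and 4.26 in siATF4 Srf cells. *TNFRSF10D*, a decoy receptor for TRAIL, was at 23.4 and 25 CPM in siY/T DMSO, 79.1 and 71.5 in siATF4 DMSO, 21.4 and 22.2 in siY/T Srf and 38.9 and 40.3 in siATF4 Srf cells. *BCL2A1*, a survival gene, had 59 and 64 reads in siATF4 DMSO and 6 and 7 in siATF4 Srf libraries, with 0 and 0 and 0 and 0 in the siY/T libraries of the same arms.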

How the data were processed

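Poly(A) RNA of HLE cells was sequenced, and the study's methods state stranded libraries, triplicates and mapping to hg19 with STAR, whereas the deposited table holds 2 libraries per group. The authors deposited CPM per Entrez identifier (26258), counted over RefSeq exons with QuasR. Each library added up to 1000000 CPM, and 100% of values were whole multiples of 1 read within 0.001 read. The strand setting of the counting is not given in the sources used here. Names came from RefSeq for 26111 identifiers, positions from GENCODE on GRCh37 and promoters from RefSeq on GRCh38.p14.

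Genes reaching 1 CPM in 2 or more of the 12 libraries were fitted as log2(CPM + 0.5) with limma 3.58.1 (R 4.3.3), 1 coefficient for each of 4 groups and a variance trend, without siCtr. Tests were two-sided. Alternatives were pseudocounts of 0.1 and 1, no filter or 5 CPM, TMM, quantile normalization, edgeR 4.0.16 and DESeq2 1.42.0 on recovered reads (edgeR called 2988 higher in siY/T and 2230 in siATF4 in DMSO, 3097 and 2468 in Srf), all 12 libraries, 1 arm alone, a replicate block, unadjusted P, a limit of 1 and each library left out. The steps were tested on simulated reads. Figures were drawn with Python 3.11.15 and matplotlib 3.10.9.

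The members and the 40 gene lists were chosen with earlier results of these data known, so counts over a list carry no test. Named were the targets, *SLC7A11* and *CHAC1*; the 12 genes per direction with the widest smaller difference of both arms; the 6 per arm and direction, of genes in 1 arm only, with the widest interaction; genes of opposite sign; all averaging 5 CPM or more and with no overlap in the arms called; and up to 4 called members of each list described, with uncalled members given as such. *ASNS*, *TXNIP* and *RUNX2* fall outside the rule. Some genes that the rule names are not reported here.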

Additional observations from a re-analysis of the deposited data

Results flagged for a closer look

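The values below are differences between the arms, Srf minus DMSO, of the log2 difference of siY/T over siATF4, for the named genes with a limma interaction at an adjusted P under 0.05. A positive value means that the gene moved toward siY/T in Srf and a negative one toward siATF4, whichever of the depletions changed. The genes were chosen partly for such differences, and 28.3% of all genes tested passed the same test, so the number of them is not a result, and no explanation was tested. Those of *NUPR1*, *IGF2* and *CDH1* had the opposite sign by edgeR and DESeq2. For *BCL2A1* and *ANKRD1*, with a handful of reads or none in siY/T cells, the size rests on the pseudocount. *IFIT1* and *ITGB8* were under 0.5 CPM in both siATF4 DMSO libraries and *CXCL2* in every siY/T library, so their sizes rest on it in part.

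Among the targeted and study genes the difference was -0.63 for *WWTR1*, 0.81 for *ATF4*, 1.08 for *SLC7A11* and 1.04 for *CHAC1*. Among genes separated the same way in both arms it was -1.35 for *MUC16*, -0.85 for *CD24*, -0.42 for *CCN2*, -0.44 for *SH2D5*, -0.46 for *MARCHF4*, -1.3 for *ANKRD1*, 0.95 for *HBEGF*, -0.59 for *MAFF* and -1.39 for *FGF1*. For genes of DMSO only it was -1.67 for *EGR1*, -1.67 for *TAGLN*, -1.49 for *SRPX2*, -1.46 for *LINC01224*, -1.44 for *EEPD1*, -1.36 for *TIAM2*, 1.68 for *BMP6*, 1.67 for *TMEM156*, 1.62 for *CEBPB*, 1.46 for *TMCC3*, 1.42 for *CLDN1* and 1.33 for *CPM*. For genes of Srf only it was 1.85 for *H2AC6*, 1.42 for *SLC6A15*, 1.42 for *ITGA2*, 1.38 for *WDR45*, 1.31 for *CCDC142*, 1.29 for *SEC14L2*, -1.59 for *CNN1*, -1.55 for *PEAR1*, -1.44 for *PRPS1*, -1.44 for *MDGA1*, -1.22 for *MCM4* and -1.2 for *SPDL1*, and for the genes called with opposite signs 2.68 for *SAT1*, -1.48 for *BHLHE41*, -1.33 for *NEIL3*, -1.36 for *FBXO43*, 2.02 for *TXNIP* and -1.47 for *RUNX2*.

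Among members of the YAP/TAZ, Hippo, AP-1, ERK, EGF, chemokine and plasminogen lists it was -0.39 for *CCN1*, 0.58 for *AMOTL2*, -1.13 for *FOSL1*, -0.68 for *JUN*, 1.17 for *CXCL5*, 1.98 for *CXCL2*, 1.16 for *CXCL3* and -0.90 for *SERPINE2*. Among those of the stress response, amino acid, tRNA synthetase and mTORC1 lists it was 1.68 for *NUPR1*, 1.03 for *DDIT4*, 1.06 for *CBS*, 0.63 for *MTHFD2*, 0.32 for *SLC6A6*, 0.70 for *SLC6A9*, 0.59 for *SLC43A2*, -0.29 for *VARS1*, 0.21 for *NARS1*, 0.27 for *LARS1*, -0.36 for *FARSB*, 0.68 for *CASTOR1*, 1.06 for *SESN2* and 1.09 for *TRIB3*. In the redox, iron, lipid and chaperone lists it was 1.32 for *HMOX1*, -0.37 for *SRXN1*, -0.58 for *TFRC*, -0.27 for *FDFT1*, -0.44 for *LSS*, -0.43 for *SDF2L1* and 0.35 for *HSPA1A*.

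In the interferon, antigen presentation, matrix, TGF-beta, IGF, axon and actin lists it was -0.43 for *IFIT1*, -0.65 for *OAS2*, -0.60 for *PSMB9*, -0.83 for *ITGB8*, -0.86 for *ITGB6*, 1.38 for *LAMA4*, -0.43 for *TGFBR3*, -0.75 for *SMAD6*, -0.68 for *IGFBP3*, 0.72 for *IGF2*, -0.31 for *IGFBP7*, 0.87 for *SLIT2*, -0.90 for *SLIT3* and -0.69 for *MYL9*. In the cell cycle and ribosome lists it was -0.56 for *CDKN2C*, -0.63 for *CCND1*, -1.31 for *CDC45*, -1.09 for *MCM10*, -0.75 for *GINS4*, -0.96 for *TYMS*, -0.82 for *ANLN*, -0.94 for *KIF20A*, -0.81 for *ASPM*, -0.69 for *NUSAP1*, 0.23 for *RPS7*, 0.29 for *RPL5*, -0.33 for *MRPS10* and -0.32 for *SDHB*. For the other named genes it was 0.68 for *BCL2L11*, 0.77 for *TNFRSF10D*, 1.48 for *BCL2A1*, 0.41 for *HK2*, -0.48 for *ENO2*, 0.51 for *ADM*, -0.88 for *PFKP*, 1.08 for *CDH1*, -1.06 for *FN1*, -0.34 for *TFEB*, 0.46 for *GABARAPL1*, 1.18 for *SQSTM1*, 0.76 for *ASNS* and -0.61 for *PCNA*.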

How the results depend on the processing

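Several alternatives could not change the difference of a gene in an arm. Among them were all 12 libraries, 1 arm alone, a replicate block and leaving out a library of the other arm. Unadjusted P could not lose a call made on an adjusted P. With these counted in, 6688 of 6796 values of named genes under the alternatives kept their direction and their side of the threshold. Another 108 kept the direction but lost the call, most of them where a log2 difference of at least 1 was asked for, and 0 reversed. With that limit the calls were 1613 higher in siY/T and 541 in siATF4 in DMSO, 1762 and 682 in Srf, 1305 and 365 in both arms, 308 in DMSO only, 498 in Srf only and 1 of opposite sign, and *WWTR1* in DMSO, at -0.80, was not called. Quantile normalization gave 1892 genes higher in siATF4 in both arms, and edgeR 12 of opposite sign. Scaling thus moved how many genes lay on which side, and the cause was not tested.

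Leaving out 1 library at a time gave 2996 to 3186 and 1748 to 1858 calls in DMSO for siY/T and siATF4, 3173 to 3278 and 1950 to 2078 in Srf, 2441 to 2550 and 1233 to 1279 in both arms, 5 to 8 of opposite sign, 381 to 758 in DMSO only and 571 to 1026 in Srf only. Differences between arms, 3819 in all, ranged from 2275 to 5232, with 2275 without siATF4 DMSO library 1, 2340 without siATF4 DMSO library 2, 2400 without siATF4 Srf library 1 and 2428 without siY/T Srf library 2. The highest counts came without either siY/T DMSO library, of the group whose replicates differed most, with an SD of 0.179. With 1 library left in a group, that library is assumed to vary like the others. The ranges were -2.34 to -2.04 and -2.52 to -2.42 for *YAP1* in DMSO and Srf, -0.98 to -0.62 and -1.50 to -1.36 for *WWTR1*, and 1.00 to 1.07 and 1.79 to 1.89 for *ATF4*. A fit of only the 4 libraries of an arm gives no difference between arms.

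Of 114 named genes with a difference between arms, 34 lost that call with no filter and 30 without some library. It turned for 3 genes with a few reads in siATF4 DMSO, from positive to -0.047 and -0.11 for *NUPR1*, -1.1 and -1.17 for *IGF2* and -0.59 and -0.63 for *CDH1* by edgeR and DESeq2, so its direction rests on the pseudocount there.

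Replicate numbers shared by groups were not taken as pairs, since the deviations of same-numbered libraries correlated at 0.16 within DMSO and 0.23 within Srf but at -0.39 to -0.03 across arms. With the replicate number as a block, calls in each arm were unchanged in number, with 521 genes in DMSO only, 774 in Srf only and 3428 differences between arms.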

Other observations

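Counts for further gene groups are given for description. Of all genes tested, 35.7% were called in DMSO and 38.5% in Srf, so a call count near these shares is no separation particular to a group. Of 21 glycolysis and hypoxia genes, 3 members were called higher in siY/T and 5 in siATF4 cells in DMSO, and 2 and 5 in Srf. *HK2*, hexokinase 2, was at 7.41 and 6.47 CPM in siY/T DMSO, 68.9 and 72.9 in siATF4 DMSO, 9.22 and 7.76 in siY/T Srf and 64.9 and 63.9 in siATF4 Srf cells, and *ENO2*, *ADM* and *PFKP* were higher in siATF4 by -1.52 and -1.99, -1.93 and -1.42 and -0.93 and -1.81 in DMSO and Srf. Of 10 epithelial-mesenchymal markers, 3 members were called higher in siY/T and 3 in siATF4 cells in DMSO, and 2 and 3 in Srf, and the Srf median turned from 0.23 to -0.11 under quantile normalization. The DMSO count higher in siY/T was 5 without siY/T DMSO library 1. *KRT18*, an epithelial keratin, was at 339 and 320.4 CPM in siY/T DMSO, 1011 and 1041 in siATF4 DMSO, 312 and 332 in siY/T Srf and 1015 and 1089 in siATF4 Srf cells, whereas *CDH1*, E-cadherin, was at 1.89 and 2.39 CPM in siY/T DMSO, 0.0643 and 0.0396 in siATF4 DMSO, 6.38 and 7.93 in siY/T Srf and 0.379 and 0.15 in siATF4 Srf cells. The mesenchymal markers *FN1* and *ZEB1* differed by 1.84 and 0.78 and -1.43 and -1.06, so neither kind of marker kept to one side.

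Of 21 autophagy genes, 3 members were called higher in siY/T and 4 in siATF4 cells in DMSO, and 4 and 1 in Srf. The Srf count higher in siATF4 was 2 or 3 under TMM scaling, quantile normalization, edgeR and DESeq2 and 2 without siATF4 Srf library 2. *TFEB*, which drives lysosome genes, was at 34.6 and 32.4 CPM in siY/T DMSO, 6.19 and 6.14 in siATF4 DMSO, 38.3 and 40.4 in siY/T Srf and 9.12 and 9.63 in siATF4 Srf cells, and the cargo receptor *SQSTM1*, higher in siATF4 in DMSO only, was at 357 and 345 CPM in siY/T DMSO, 894 and 939 in siATF4 DMSO, 464 and 471 in siY/T Srf and 524 and 553 in siATF4 Srf cells. *GABARAPL1* and *ATG14* differed by 0.73 and 1.19 and 0.75 and 0.81. Of 23 endoplasmic reticulum chaperones and sensors, 4 members were called higher in siY/T and 1 in siATF4 cells in DMSO, and 6 and 1 in Srf, with *PDIA3*, a disulfide isomerase, at 592 and 557 CPM in siY/T DMSO, 252 and 246 in siATF4 DMSO, 544 and 556 in siY/T Srf and 259 and 244 in siATF4 Srf cells, and *SEL1L*, *EDEM1* and *SDF2L1* at 0.77 and 0.94, 0.68 and 0.85 and -0.50 and -0.93. The count of 1 higher in siATF4 was in Srf 3 under TMM scaling, edgeR and DESeq2 and without siY/T Srf library 2, 2 without siATF4 Srf library 1 and 5 under quantile normalization, and in DMSO 2 under quantile normalization and without siY/T DMSO library 1. Of 16 heat shock chaperones, 3 members were called higher in siY/T and 2 in siATF4 cells in DMSO, and 4 and 5 in Srf. The DMSO count higher in siY/T was 5 without siATF4 DMSO library 1 or siY/T DMSO library 2. *HSPB8* was at 4.97 and 3.38 CPM in siY/T DMSO, 13.3 and 12.5 in siATF4 DMSO, 4.45 and 4.75 in siY/T Srf and 13.1 and 15.5 in siATF4 Srf cells and *HSPD1* differed by -0.73 and -0.82. *HSPA1A*, which shares reads with its near-identical copy, differed by 0.60 and 0.95, and its DMSO call was lost under TMM scaling, quantile normalization, edgeR and DESeq2 and without siY/T DMSO library 1 or siATF4 DMSO library 2.

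The remaining lists were small or little called. Of 10 Notch pathway genes, 3 members were called higher in siY/T and 1 in siATF4 cells in DMSO, and 4 and 1 in Srf, and of 9 fatty acid synthesis genes, 3 members were called higher in siY/T and 1 in siATF4 cells in DMSO, and 4 and 2 in Srf. For 17 mitochondrial aminoacyl-tRNA synthetases, 0 members were called higher in siY/T and 1 in siATF4 cells in DMSO, and 1 and 3 in Srf, and for 5 metallothioneins and zinc exporters, 0 members were called higher in siY/T and 2 in siATF4 cells in DMSO, and 1 and 1 in Srf. The Notch count higher in siY/T in DMSO was 5 with a pseudocount of 0.1, by edgeR and DESeq2 and without siY/T DMSO library 1 or siATF4 DMSO library 2. In Srf, without siY/T Srf library 1, the metallothionein list had 0 genes higher in siY/T and 2 higher in siATF4, and 2 higher in siATF4 also without siATF4 Srf library 1.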
